A study of Homo sapiens with 24 samples.

Results

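Transcript levels of 45 genes of the actin cytoskeleton were followed in 2 human cancer cell lines in which the replication licensing gene MCM7 could be knocked down. The genes were taken from a list of actins, myosin chains, tropomyosins and actin-binding proteins, and all 45 were found by their Ensembl identifiers among the 21386 genes counted. RNA was sequenced from A375 melanoma cells and A549 lung adenocarcinoma cells, and reads were counted per gene (counts). In each line, shMCM7 cells and parental cells were kept for 72 hours with Doxycycline (Dox, 1 μg/ml) or without it (noDox), with 3 biological replicates per group and 24 libraries in all. All groups were arrested at the G1/S boundary by a double thymidine block. The shMCM7 cells carried a Dox-inducible shRNA against MCM7 in the lentiviral vector pRSIT17, introduced at an MOI of 1.4, as a transduced population and not as single clones. The parental cells were labelled without a vector, so the vector, the shRNA and the selection of transduced cells cannot be told apart in a comparison of shMCM7 with parental cells.

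Actin monomers assemble into polar filaments that are nucleated, elongated, severed and capped by actin-binding proteins. Filaments of non-muscle cells contract when myosin II pulls on them, and tropomyosins, calponins, caldesmon and transgelins decorate the filament and set which proteins can bind it. Many of these genes are known targets of serum response factor (SRF) and its cofactors of the MRTF family, which read the pool of actin monomers and bind a sequence called the CArG box.

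The shRNA sequence is shown because it defines the knockdown. On GRCh38 with GENCODE 29 it spans the junction of exons 8 and 9 of the 15-exon transcript of MCM7, in the coding region, on the minus strand of chromosome 7 between 100097728 and 100097836. An exact match to its 21 bases was found in 5 MCM7 transcripts and in no transcript of another gene in that annotation.
shRNA target: cagaggaggatttctacgaaa

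The CArG box was searched by name in RefSeq promoter windows of GRCh38.p14, which run from 250 bases before to 50 bases after a gene start. The motif reads alike on both strands, so each match covers both. Of the 45 genes, 39 had at least 1 window, and 5 of these 39 (12.8%) had a match, against 454 of all 35116 windows (1.29%). ACTB, TAGLN, MYL9, CTTN, FSCN1 and PFN2 had no window, so their promoters were not searched. The 5 matches lay in 5 of the 63 windows of these genes (7.94%). They are printed with the CArG box in capitals and up to 40 bases to each side, since genes with a match moved in different directions. In A375 shMCM7 cells given Dox, ACTN1, CNN2 and FLNA rose (FLNA not in most refits without 1 library), ACTG1 fell and TPM4 did not pass the test. The box began 94 bases before the start in ACTG1 and FLNA, 89 in CNN2, 171 in ACTN1 and 173 in TPM4.
ACTG1, chr17:81512844-81512933, minus strand: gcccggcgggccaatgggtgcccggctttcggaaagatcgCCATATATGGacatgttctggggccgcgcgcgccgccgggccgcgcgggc
FLNA, chrX:154374679-154374768, minus strand: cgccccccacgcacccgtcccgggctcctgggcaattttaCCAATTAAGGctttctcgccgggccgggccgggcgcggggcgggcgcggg
CNN2, chr19:1026479-1026568, plus strand: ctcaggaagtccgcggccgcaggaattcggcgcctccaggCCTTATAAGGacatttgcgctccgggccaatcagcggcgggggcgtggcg
ACTN1, chr14:68977688-68977777, minus strand: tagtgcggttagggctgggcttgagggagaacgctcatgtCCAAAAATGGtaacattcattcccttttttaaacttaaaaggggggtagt
TPM4, chr19:16067325-16067414, plus strand: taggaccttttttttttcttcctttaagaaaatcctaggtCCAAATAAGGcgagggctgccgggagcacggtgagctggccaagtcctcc

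Each A375 library held 146656792 to 283721575 counts, whereas those of A549 held 17911338 to 23452823. Levels are given as CPM, read counts scaled to a common library size by TMM, or as RPKM, the same per kilobase of annotated exons, where genes are compared. In A375 shMCM7 cells MCM7 was at 76.3 to 77.4 CPM with Dox. Without Dox it was at 353 and 359 CPM in replicates 2 and 3 but at 131 CPM in replicate 1, so results were also computed without that library. Parental A375 libraries had 344 to 369 CPM. In A549, MCM7 was low in 3 libraries with 3 different labels, which goes against the labels and is taken up with the A549 results. The melanoma marker SOX10 was at 500.2 to 676 CPM in A375 and at 0 in A549. The keratin KRT8 was at 1798 to 2756 CPM in A549, but at 60.6 to 94.1 CPM in A375. KRT7, KRT18, EPCAM and CDH1 were likewise higher in A549, and S100B, PMEL and DCT had higher medians in A375. Other lineage markers did not separate the lines in this way. MITF overlapped, with medians of 33.1 CPM in A375 and 41.4 CPM in A549. The lung marker NKX2-1 had medians of 0.321 CPM in A375 and 0 in A549, and SFTPC was near 0 in both (at most 0.0399 and 0.206 CPM). The pigment cell markers MLANA and TYR were at or near 0 in A375 (at most 0.00698 and 0.00855 CPM).

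The 45 genes together took 1.67% to 1.93% of the scaled counts in A375 and 2.41% to 3.08% in A549. Per length, the non-muscle actins ACTB and ACTG1 were the highest in both lines, with medians over 12 libraries of 841 and 585 RPKM in A375 and 1439 and 1419 RPKM in A549. The monomer-binding profilin PFN1 came next in both lines, at 556 and 763 RPKM. This order depended on the length used in A375. Per length of the longest transcript, ACTB stayed first there, but CFL1 (920 RPKM) and PFN1 (856) came before ACTG1 (777). In A549 the order of ACTB, ACTG1 and PFN1 was the same with either length. At the other end, calponin CNN1 and filamin FLNC, which are typical of muscle, were at 0.223 and 0.0243 RPKM in A375. TAGLN and MARCKS, the genes with the largest changes below, were also among the low ones in A375, at 2.76 and 4.09 RPKM. Fewer cells expressing a gene and less RNA per cell cannot be told apart in such bulk libraries.

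The first question was which of these genes changed when the shRNA was induced in A375. With Dox, 17 of the 45 genes rose and 6 fell in shMCM7 cells at an adjusted p under 0.05, and 22 did not pass. Changes were small: the 17 rose by 0.14 to 0.81 on the log2 scale (1.10-fold to 1.75-fold), and the 6 lay at -0.54 to -0.26. The thin filament protein TAGLN and the membrane protein MARCKS rose the most, while TAGLN2, the close relative of TAGLN, fell the most. TAGLN and MARCKS were the 2 genes that also passed a 1.5-fold threshold, and 0 of those that fell did.
These counts come from the quasi-likelihood test of edgeR, with p-values adjusted by Benjamini-Hochberg over the 16087 genes tested. Over all of them, 20.6% rose and 22.4% fell, and with the 1.5-fold threshold (and p under 0.01) 5.58% were called up and 6.45% down. The median log2 fold change was 0.11 for the 45 genes and 0.0045 for all genes, and 33 of the 45 values were above 0. The share that rose was thus 17 of 45 against a background of 20.6%, whereas the share called past 1.5-fold was near or below its background. Without shMCM7 noDox replicate 1, 4 genes were called up instead of 2, the additional ones being TPM1 and CNN1. Without shMCM7 noDox replicate 2, 11 genes rose instead of 17, against 14.2% of all genes in that fit, and CAPZB, FLNA, LASP1, MYH9, MYL12B and TPM1 no longer passed, while the same 6 genes fell.

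**Figure D1:**
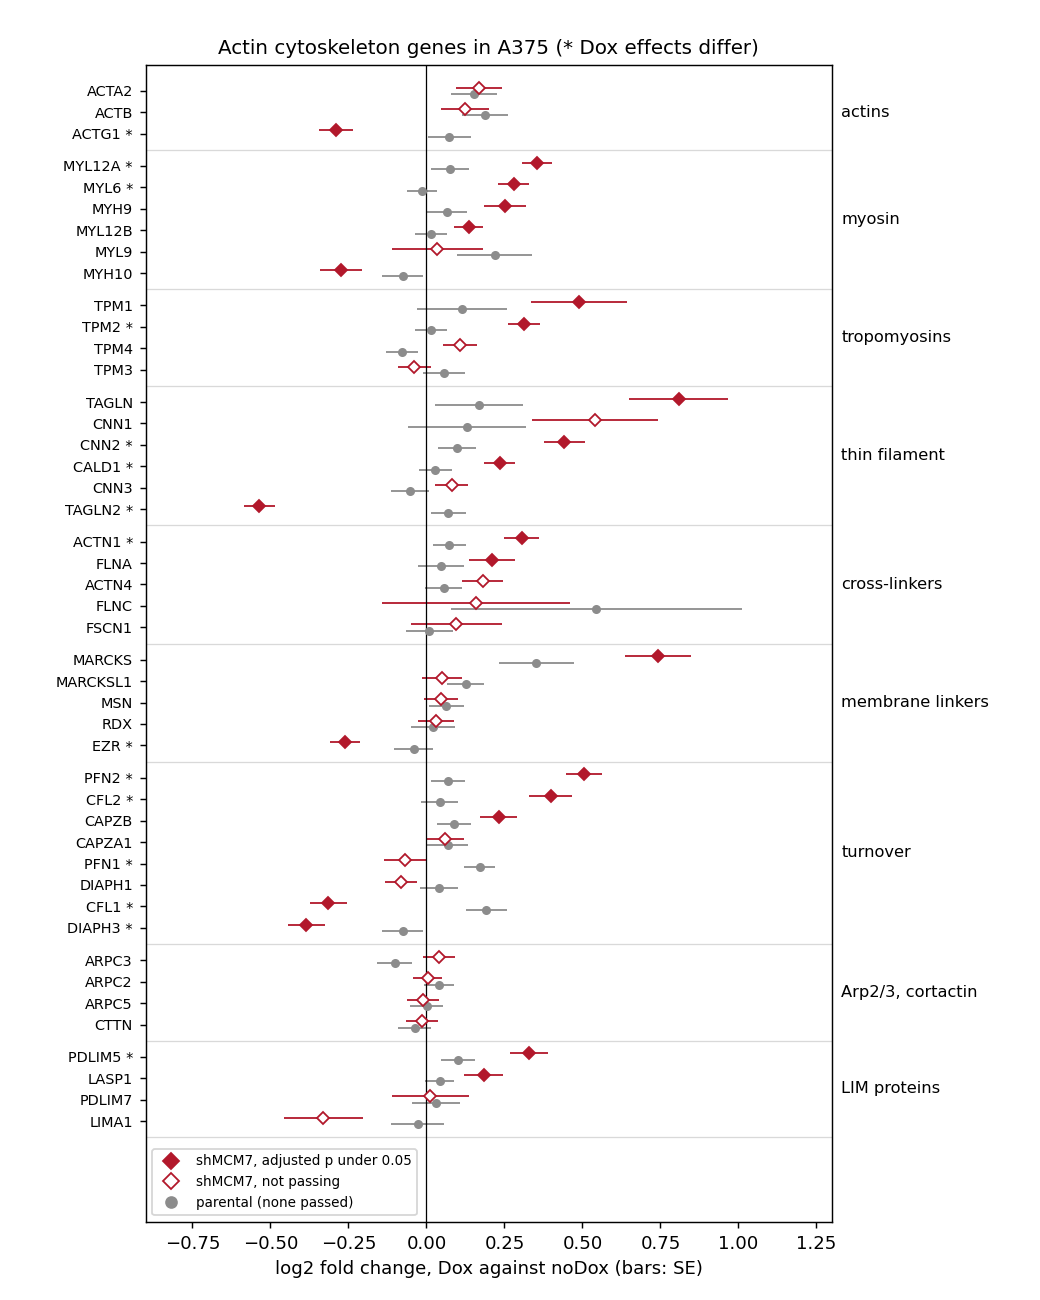
Log2 fold change (x axis) of each of the 45 genes with Dox against noDox in A375 shMCM7 cells (red diamonds) and parental cells (grey circles), grouped by role, with standard errors as bars. Filled diamonds mark the 23 genes that passed in shMCM7 cells, asterisks the 15 whose Dox effects differed between the cells, and none of the parental values passed.

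The second question was how much of this was also seen in parental cells, which separates what Dox did without the vector from what it did in the transduced cells. In parental A375 cells, 0 of the 45 genes changed, as 0% of the 15993 genes tested rose and 0% fell in edgeR's test. At an unadjusted p under 0.05 there were 1121 genes, 4 of them among the 45, and the Wald test of DESeq2 also found 0 of the 45. With replicates blocked by number, 1 of the 45 rose (MARCKS), against 0.275% of all genes. The parental values still leaned upwards for these genes, with 36 of 45 above 0 and a median of 0.056 (all genes -0.00064).
The difference between both Dox effects was tested as an interaction over all 12 A375 libraries. It was positive at an adjusted p under 0.05 for 9 of the 45 genes and negative for 6, against 13.5% and 16.5% of 16334 genes. With the 1.5-fold threshold, 1 of the 45, TAGLN2, was called down and 0 were called up, against 6.17% and 4.37% of all genes. Of the 17 genes that rose in shMCM7 cells, 9 therefore also rose more than in parental cells (ACTN1, CALD1, CFL2, CNN2, MYL12A, MYL6, PDLIM5, PFN2 and TPM2). For the other 8 (CAPZB, FLNA, LASP1, MARCKS, MYH9, MYL12B, TAGLN and TPM1) a difference from the parental shift was not shown in this fit. Of the 6 genes that fell, 5 fell relative to parental cells as well (ACTG1, CFL1, DIAPH3, EZR and TAGLN2), the exception being MYH10. Without parental Dox replicate 2, 6 of the 45 were higher and 4 lower, against 9.89% and 13.3% of all genes. ACTN1, CALD1, EZR, PDLIM5 and PFN1 then no longer passed, and each also did not pass in most other refits without 1 library. With replicates blocked by number, MARCKS, TAGLN, MYH10 and TPM4 passed as well (12 higher and 7 lower, against 16.4% and 19.6% of all genes). Same-numbered libraries correlated at 0.088 to 0.256 in shMCM7 and at 0.018 to 0.319 in parental cells.

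Another comparison set uninduced shMCM7 cells against uninduced parental cells, both without Dox. In the edgeR test 0 of the 45 genes differed, against 1.9% of 16093 genes higher and 1.07% lower, and 1.17% called up and 0.478% called down. At an unadjusted p under 0.05 there were 2612 genes, 12 of them among the 45, and DESeq2 found 2 of the 45 higher (MARCKS and PFN1), against 3.46% of all genes. Same-numbered libraries of these groups deviated together, and when replicates were blocked by number 10 of the 45 were higher in shMCM7 cells and 1 was lower, against 8.4% and 7.62% of all genes in the blocked fit. Those higher were ACTB, MARCKS, TPM1, CNN2, FLNC, CFL1, PFN1, PFN2, PDLIM5 and LASP1, with log2 differences of 0.11 in LASP1 to 0.38 in MARCKS and 1.24 in FLNC, and the one lower was MYH10 at -0.17. FLNC was the one past 1.5-fold, from 22 to 40 counts per library in parental cells and 38 to 107 in shMCM7 cells. The TPM1 difference of 0.36 was 0.12 when shMCM7 noDox replicate 1 was left out of the fit without the block.

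Among the actins, the non-muscle forms ACTB (beta-actin; ENSG00000075624, chr7:5527147-5563784, minus strand) and ACTG1 (gamma-actin; ENSG00000184009, chr17:81509971-81523847, minus strand; here and below on GRCh38 with GENCODE 29) were followed in each library. ACTB was at 3522, 3138 and 3125 CPM in shMCM7 Dox libraries and at 3241, 2785 and 2930.3 CPM without Dox, and at 2989, 2986 and 2661 CPM in parental Dox and 2819.7, 2335 and 2449 CPM in parental noDox libraries. The groups overlapped within each kind of cell, and ACTB did not pass the test (log2 fold change 0.12 ± 0.076 SE in shMCM7, adjusted p = 0.216 in edgeR, and 0.19 ± 0.074 in parental cells, adjusted p = 0.648).
ACTG1 was at 1524, 1481 and 1569 CPM in shMCM7 Dox libraries and at 1917, 1796 and 1866 CPM without Dox. Parental libraries had 1848, 1908 and 1683 CPM with Dox and 1878, 1597 and 1709 CPM without. All 3 induced libraries lay below the other 9. ACTG1 fell by 0.29 on the log2 scale (SE 0.055, adjusted p = 0.0027 in edgeR) in shMCM7 cells, and the difference from the parental effect was -0.37 ± 0.092 (SE, adjusted p = 0.0089). The smooth muscle actin ACTA2 was at 47.1, 52.9 and 57.0 CPM with Dox and 43.9, 48.0 and 47.3 CPM without, which did not pass (log2 fold change 0.17, adjusted p = 0.0935 in edgeR).

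**Figure D2:**
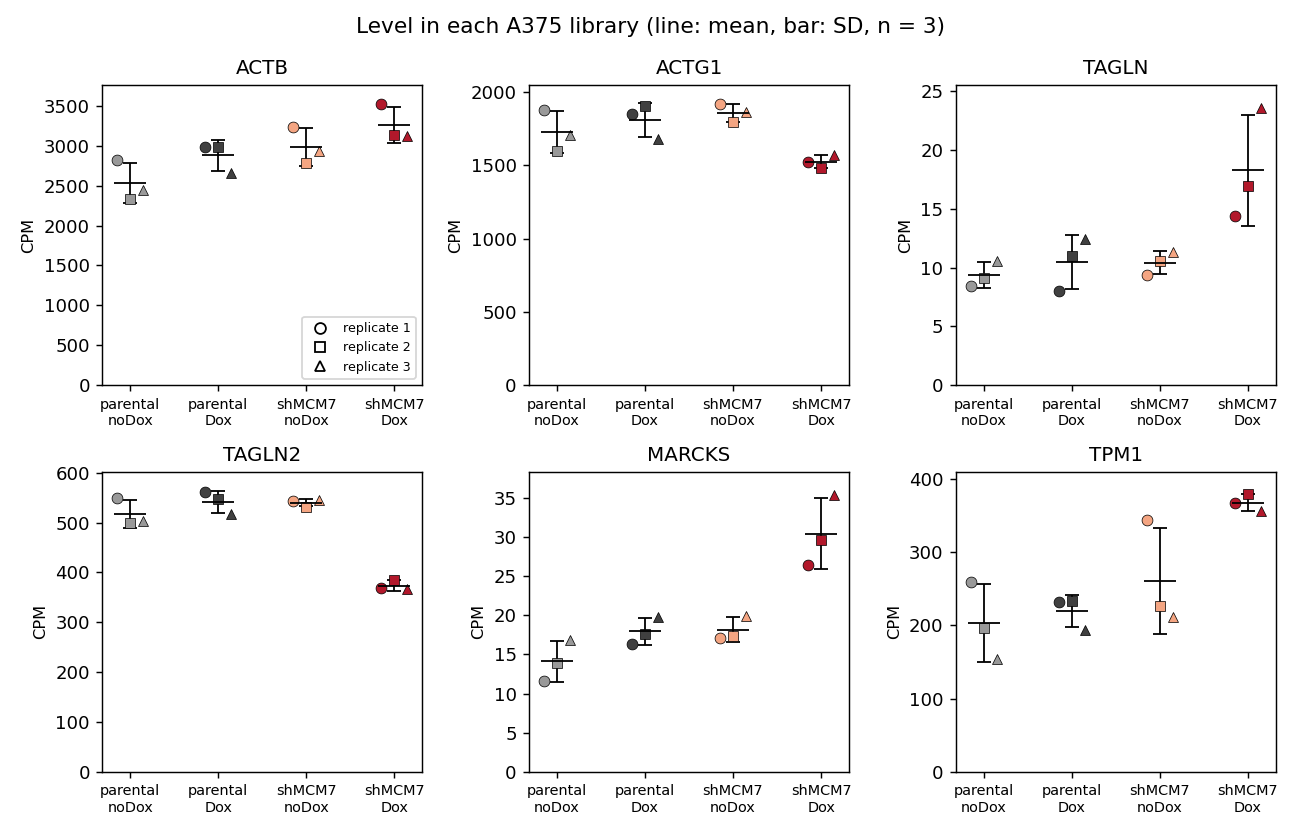
CPM (y axis) of ACTB, ACTG1, TAGLN, TAGLN2, MARCKS and TPM1 in each of the 12 A375 libraries, with the mean (line) and SD (bar) of each group of 3. The induced shMCM7 libraries lay below all others for ACTG1 and TAGLN2 and above all others for TAGLN and MARCKS, whereas for TPM1 shMCM7 noDox replicate 1 (344 CPM) sat near the induced libraries.

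Of the thin filament proteins, TAGLN (transgelin, an actin-bundling protein that is abundant in smooth muscle) had the largest rise. The gene (ENSG00000149591, chr11:117199321-117204782, plus strand) was at 14.4, 16.9 and 23.5 CPM in shMCM7 Dox libraries against 9.35, 10.5 and 11.3 CPM without Dox. In parental cells it was at 7.98, 11.02 and 12.5 CPM with Dox and 8.43, 9.13 and 10.6 CPM without. The induced libraries lay above the other 9, and replicate 3 was the highest. The log2 fold change was 0.81 ± 0.16 (SE, adjusted p = 0.0032 in edgeR) in shMCM7 and 0.17 ± 0.14 (adjusted p = 0.831) in parental cells. The difference of 0.64 ± 0.25 missed the threshold (adjusted p = 0.0639). It passed without shMCM7 Dox replicate 1 (0.79), without parental Dox replicate 3 (0.78), or with replicates blocked by number.
TAGLN2, a ubiquitous transgelin (ENSG00000158710, chr1:159918107-159925732, minus strand), was at 369, 385 and 366 CPM in shMCM7 Dox libraries and at 543, 532 and 545 CPM without Dox. Parental libraries had 560.4, 546 and 517 CPM with Dox and 548.9, 499.5 and 503 CPM without. The induced libraries again lay apart from all others, here below them. TAGLN2 fell by 0.54 on the log2 scale (SE 0.050, adjusted p = 8.15e-05 in edgeR), and relative to the parental effect by 0.61 (SE 0.072, adjusted p = 6.17e-05). That difference passed the adjusted p in every refit without 1 library, but dropped under 1.5-fold (-0.58) without parental Dox replicate 1, parental noDox replicate 2 or parental noDox replicate 3.
CNN2, a non-muscle calponin, rose from 116 ± 9.23 to 158 ± 5.57 CPM (SD, n = 3; log2 fold change 0.44), and the caldesmon gene CALD1 rose by 0.23 on that scale. The muscle calponin CNN1 stood at 1.12, 0.925 and 1.16 CPM with Dox and at 0.973, 0.625 and 0.606 CPM without, where the library labelled noDox replicate 1 was again near the induced ones. It did not pass (0.54 ± 0.20, adjusted p = 0.0543 in edgeR), and without that library it did (0.80, adjusted p = 0.0046). With all libraries kept, CNN1 passed in the Wald test of DESeq2 and with replicates blocked by number. CNN3 had a log2 fold change of 0.081 and did not pass.

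The tropomyosins, which wind along the filament, split into TPM1 and TPM2, which rose, and TPM3 and TPM4, which did not pass. TPM2 rose by 0.31 ± 0.052 on the log2 scale (SE, adjusted p = 0.0014 in edgeR) and by 0.30 relative to parental cells. TPM1 (ENSG00000140416, chr15:63042632-63071915, plus strand) was at 367, 379 and 356 CPM in induced libraries and at 344, 227 and 212 CPM in shMCM7 noDox libraries, against 231, 233 and 194 CPM with and 259, 197 and 154 CPM without Dox in parental cells. Its log2 fold change was 0.49 ± 0.15 (adjusted p = 0.0281), and the difference from parental cells did not pass (0.37 ± 0.25, adjusted p = 0.283). Without shMCM7 noDox replicate 1, both were larger and passed, at 0.74 ± 0.062 (adjusted p = 7.82e-05) and 0.63 ± 0.20 (adjusted p = 0.0337). With that library kept, the TPM1 rise did not pass in the Wald test of DESeq2. It also did not pass without shMCM7 Dox replicate 2 or 3, nor without shMCM7 noDox replicate 2 or 3.

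Among the chains of non-muscle myosin II, the contractile motor, 4 of 6 genes rose and 1 fell. The regulatory light chain MYL12A (log2 fold change 0.35) and the essential light chain MYL6 (0.28) rose, also relative to parental cells (0.28 and 0.29). MYL12B, which lies 5242 bases from MYL12A on chromosome 18, rose by 0.14. It did not pass without shMCM7 noDox replicate 1, nor in most other refits without 1 library. The heavy chain MYH9 rose by 0.25 ± 0.067 (adjusted p = 0.0138 in edgeR), from 431, 397 and 383 CPM to 469, 459 and 518 CPM. It did not pass without shMCM7 Dox replicate 3, nor without shMCM7 noDox replicate 2 or 3. MYH10, the other main heavy chain, fell by 0.27 (SE 0.066, adjusted p = 0.0090). MYH10 went from 203, 219.6 and 224 CPM to 164, 181 and 191 CPM. The light chain MYL9 had a log2 fold change of 0.035 in shMCM7 and 0.22 in parental cells, and neither passed.

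Of the cross-linkers, ACTN1 (alpha-actinin) rose by 0.30 ± 0.055 and FLNA (filamin A) by 0.21 ± 0.073 on the log2 scale (SE, adjusted p = 0.0020 and 0.0435 in edgeR). FLNA did not pass without shMCM7 Dox replicate 1 or 3, nor without shMCM7 noDox replicate 2 or 3. ACTN1 also rose relative to parental cells (0.23), but that difference did not pass in most refits without 1 library. ACTN4 had 0.18 (adjusted p = 0.0534) and the bundling protein FSCN1 0.095, neither of which passed in edgeR. ACTN4 did pass in the Wald test of DESeq2, with replicates blocked by number, and without shMCM7 Dox replicate 2. FLNC was at 0.260 to 0.384 CPM with and 0.171 to 0.419 CPM without Dox, and did not pass.

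Among proteins that tie actin to the plasma membrane, MARCKS, a protein kinase C substrate (ENSG00000277443, chr6:113857362-113863471, plus strand), was at 26.4, 29.6 and 35.3 CPM in shMCM7 Dox libraries and at 17.1, 17.4 and 20.0 CPM without Dox. In parental cells it was at 16.4, 17.6 and 19.8 CPM with Dox and at 11.6, 13.9 and 16.9 CPM without. The induced shMCM7 libraries lay above all others, and the parental groups overlapped. MARCKS rose by 0.74 ± 0.11 (SE, adjusted p = 0.00060 in edgeR) in shMCM7 cells. The parental value was 0.35 ± 0.12 (adjusted p = 0.612), and the difference of 0.39 ± 0.18 did not pass (adjusted p = 0.124). Both passed with replicates blocked by number. The related MARCKSL1 did not pass (0.049). EZR (ezrin) fell by 0.26, and by 0.22 relative to parental cells. That difference did not pass without shMCM7 noDox replicate 1, nor in most other refits without 1 library. MSN (moesin) and RDX (radixin), the other 2 members of that family, had 0.047 and 0.030 and did not pass.

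Genes of filament assembly and turnover moved in both directions. The profilin PFN2 rose from 193 ± 6.77 to 275 ± 16.0 CPM (SD, n = 3), by 0.50 ± 0.059 on the log2 scale (SE, adjusted p = 0.00021 in edgeR) and by 0.43 relative to parental cells. PFN1 did not pass in shMCM7 cells (-0.068), but relative to parental cells, where it stood at 0.17, it was lower by -0.24 (adjusted p = 0.0384). This difference did not pass without shMCM7 noDox replicate 1 (-0.22, adjusted p = 0.0785), nor in most other refits without 1 library. CFL1 (cofilin, which severs filaments) fell by 0.31, and its relative CFL2 rose by 0.40. Relative to parental cells these values were -0.51 (adjusted p = 0.0012) and 0.35 (adjusted p = 0.0106). The capping protein CAPZB rose by 0.23, and its partner subunit gene CAPZA1 had 0.060 and did not pass.
The formin DIAPH3 fell by 0.39 ± 0.059 (SE, adjusted p = 0.00082 in edgeR), from 23.5, 23.2 and 22.9 CPM to 17.1, 18.1 and 18.3 CPM, whereas the formin DIAPH1 did not pass (-0.081). Beside this, 11 of 12 genes of a G2/M list fell in shMCM7 cells (22.4% of all genes) and 0 in parental cells. The parental values were below 0 for 9 of the 12, and 4 had an unadjusted p under 0.05 in edgeR. The summed level of the list was 1160 to 1284 CPM in induced shMCM7 libraries against 1548 to 1633 CPM without Dox. The part of this in the fall of DIAPH3 was not tested.
The genes of branched networks, ARPC2, ARPC3 and ARPC5 of the Arp2/3 complex and CTTN (cortactin), did not pass in any of the 4 A375 comparisons without the block, with log2 fold changes of -0.013 to 0.040 in shMCM7 cells. Of the LIM domain proteins, PDLIM5 rose by 0.33 and LASP1 by 0.18 (0.16 and not passing without shMCM7 noDox replicate 1). LASP1 also did not pass without shMCM7 Dox replicate 3, nor without shMCM7 noDox replicate 2 or 3. PDLIM7 had 0.013 and did not pass, and LIMA1 did not pass either (-0.33, adjusted p = 0.0594). LIMA1 was at 139 CPM in shMCM7 noDox replicate 1 and at 207 and 175 CPM in the others, and without replicate 1 it fell by 0.47 (adjusted p = 0.0046). With all libraries kept, LIMA1 passed in the Wald test of DESeq2 and with replicates blocked by number.

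Since several pairs of related genes differed in direction, their ratio of counts was taken within each library, which does not depend on the scaling between libraries. The 6 pairs were chosen with the changes known. The ratio of ACTG1 to ACTB was 0.433, 0.472 and 0.502 in induced shMCM7 libraries and 0.591, 0.645 and 0.637 without Dox. In parental cells it was 0.618, 0.639 and 0.633 with Dox and 0.666, 0.684 and 0.698 without. The ratio thus also shifted in parental cells, by -0.12 on the log2 scale against -0.41 in shMCM7 cells.
Its shMCM7 groups did not overlap, and neither did the parental ones.
The ratio of TAGLN to TAGLN2 was 0.0389, 0.0439 and 0.0643 in induced shMCM7 libraries against 0.0172, 0.0198 and 0.0208 without Dox, a log2 difference of 1.32. In parental cells the groups overlapped (0.0195 ± 0.0050 with Dox and 0.0182 ± 0.0029 without, SD, n = 3). The ratio of CFL2 to CFL1 was 0.0383 ± 0.0018 with and 0.0234 ± 0.0011 without Dox in shMCM7 cells (log2 difference 0.71), whereas in parental cells it went the other way (-0.15).
The log2 differences in shMCM7 cells were 0.57 for PFN2 to PFN1, -0.53 for MYH10 to MYH9 and 0.68 for MARCKS to MARCKSL1, against -0.10, -0.14 and 0.24 in parental cells. In all 6 pairs the shMCM7 groups did not overlap. Each gave p = 0.1 in a two-sided exact permutation test, the smallest that 3 against 3 libraries allow, and 0.15 after Benjamini-Hochberg adjustment over the 12 tests, so this design could not pass the threshold.

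**Figure D3:**
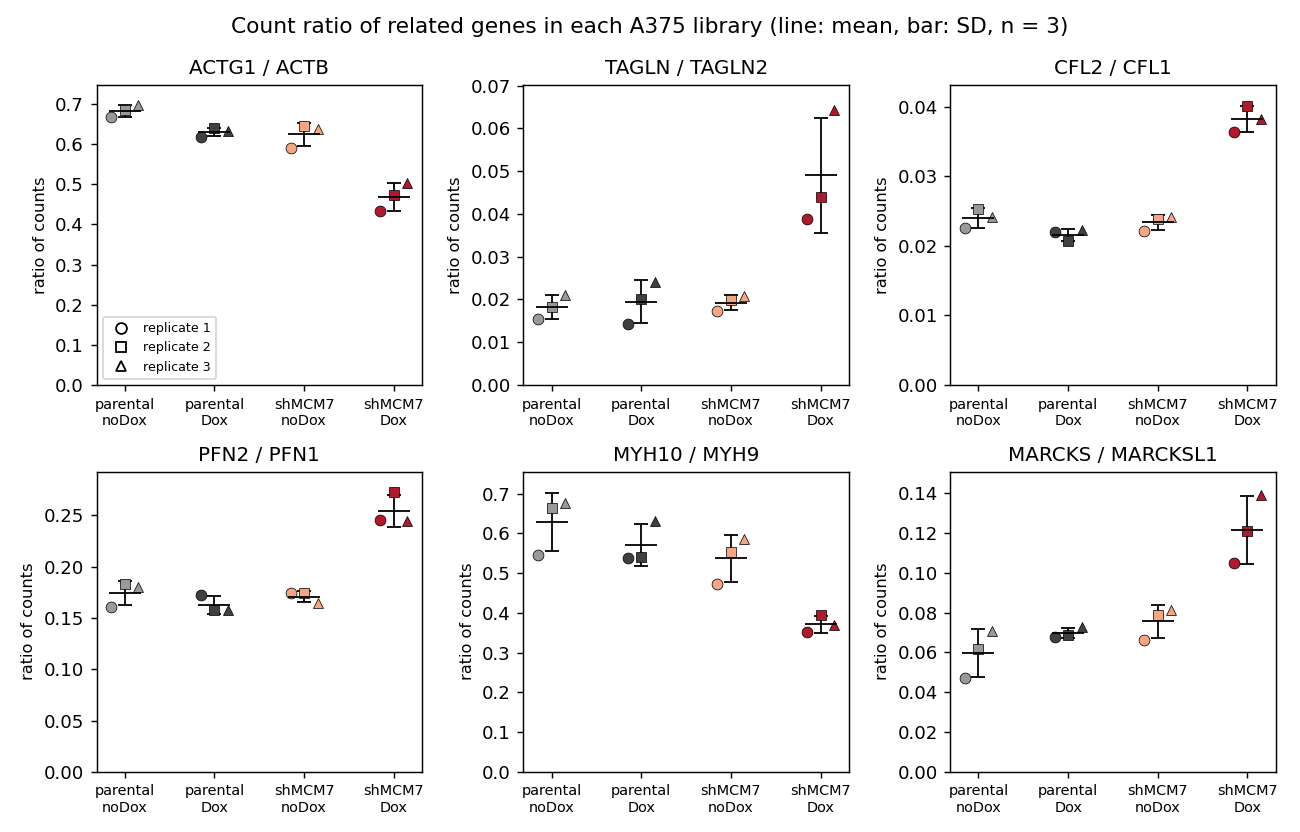
Ratio of counts (y axis) of 6 pairs of related genes in each of the 12 A375 libraries, with the mean (line) and SD (bar) of each group of 3. In each panel the 3 induced shMCM7 libraries lie apart from the 3 uninduced shMCM7 libraries, for example at 0.0389 to 0.0643 against 0.0172 to 0.0208 for TAGLN to TAGLN2.

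Genes that act on these proteins were followed as companion lists. Of 34 genes of signalling to actin and of SRF regulation, 12 rose and 8 fell in A375 shMCM7 cells with Dox (20.6% and 22.4% of all genes), 1 of each past 1.5-fold, and 0 changed in parental cells in the edgeR test, where 4 had an unadjusted p under 0.05. LIMK1, the kinase that inactivates cofilin, rose from 61.9 ± 7.62 to 119 ± 8.46 CPM (SD, n = 3; log2 fold change 0.94 ± 0.089 SE, adjusted p = 8.45e-05), and by 0.84 relative to parental cells.
Of 48 other filament proteins, 11 rose and 9 fell, which was near the shares of all genes (20.6% and 22.4%), and 1 was past 1.5-fold up and 3 down. In parental cells 0 changed in edgeR, where 3 had an unadjusted p under 0.05. CAP2, a cyclase-associated protein that binds actin monomers, rose by 0.82. The pointed-end capping gene TMOD1 (-1.11), the contractile ring scaffold ANLN (-0.74) and the cardiac actin ACTC1 (-1.23) fell. ACTC1 rested on 8 to 25 counts per library with Dox and 27 to 55 without. ANLN belongs to dividing cells, and the G2/M list given with DIAPH3 fell beside it, whose part was not tested.

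Since TAGLN, CNN1 and ACTA2 are known from smooth muscle, markers of that and of fibroblasts were read in the same libraries. Of 6 smooth muscle markers, 5 could be tested, and SMTN, MYOCD and SYNPO2 rose in shMCM7 cells with Dox (0.36, 0.60 and 0.63), where 20.6% of all genes rose. In the difference between Dox effects 0 of the 5 markers passed. The summed level of the 6 markers, most of it SMTN, was 151 to 199 CPM with and 118 to 159 CPM without Dox, and 114 to 139.9 CPM in parental cells. The defining markers MYH11, DES and LMOD1 were at or near 0 in A375 (at most 0.0556, 0.107 and 0.120 CPM). Of 5 fibroblast markers, PDGFRB rose (0.84) and LUM fell (-0.75), with summed levels of 31.2 to 39.1 CPM with and 27.4 to 31.4 CPM without Dox, and of 25.1 to 38.0 CPM with and 26.8 to 27.3 CPM without Dox in parental cells.

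Counting can mix related or overlapping genes, and whether reads were assigned by strand is not given in the sources used here. Of the 45 genes, 21 overlap an exon of a gene on the other strand, among them TAGLN (446 bases, PCSK7), TPM1 (2761 bases) and CFL1 (1116 bases), but not ACTB, ACTG1, TAGLN2, MARCKS or CFL2. Sequences of 50 bases shared with another gene made up at most 8.18% of a gene's transcripts (ARPC3), 4.84% in ACTB, 2.30% in ACTG1, 5.84% in TAGLN2 and 0% in TAGLN and MARCKS. Counts of genes that share sequence or overlap another gene are therefore uncertain.

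In A549 the comparison by label found no change in these genes. CNN1 was too low to test, and of the other 44 genes 0 rose and 0 fell in shMCM7 cells and 0 in parental cells, as did 0% of 13550 and 0% of 13494 genes in edgeR, and 0 of the 44 in DESeq2. At an unadjusted p under 0.05 there were 61 genes in shMCM7 cells, 1 of them among the 44, and 1137 in parental cells, 4 of them among the 44. The level of MCM7 went against these labels. It was 95.6 CPM in shMCM7 Dox replicate 3, 100.3 CPM in shMCM7 noDox replicate 2 and 90.3 CPM in parental noDox replicate 2, and 294 to 339 CPM in the other 9 libraries. The labels were kept for the tests, and the libraries were in addition described by their measured MCM7, under 150 CPM or over 250 CPM. That split is a measured level and no group of the study, so it is given as values with no test, and its cause was not tested.

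Of the 44 genes, 23 were higher in all 3 libraries with low MCM7 than in any of the other 9, 6 were lower and 15 overlapped. Over the 13497 genes with a mean of at least 10 counts, 21.9% lay above and 17.9% below. TAGLN stood furthest apart among the genes named here, at 94.8, 89.4 and 65.7 CPM against 11.9 to 17.4 CPM. TPM1 was at 1223 to 1338 against 557 to 729 CPM and CNN2 at 202 to 244 against 98.6 to 131 CPM.
Those below were ACTG1, TAGLN2, MARCKSL1, EZR, LIMA1 and CTTN. ACTG1 was at 2989 to 3382 against 3969.6 to 4704 CPM, while ACTB was at 5336 to 6096 against 4500.1 to 5113 CPM, so the non-muscle actins lay in opposite directions. TAGLN2 was at 426 to 457 against 564 to 637 CPM, and LIMA1 at 7.93 to 8.79 against 14.1 to 19.1 CPM.
Within libraries, the ratio of ACTG1 to ACTB was 0.555, 0.571 and 0.560 in those with low MCM7 and 0.865 to 0.928 in the others, and that of TAGLN to TAGLN2 was 0.207, 0.206 and 0.154 against 0.0189 to 0.0295. The ratio of MYH10 to MYH9 was 0.0971, 0.113 and 0.139 against 0.145 to 0.184. The ratio of CFL2 to CFL1 was 0.151, 0.162 and 0.188 against 0.103 to 0.135.

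Both lines were then set side by side. Of the 17 genes that rose in induced A375 shMCM7 cells, 14 (82.4%) lay above in the A549 libraries with low MCM7 and 0 below, where 50.3% of the 2785 genes that rose in A375 lay above. Of the 6 that fell in A375, 3 (50%) lay below (ACTG1, TAGLN2 and EZR) and 0 above, where 41.2% of 3127 genes lay below. The other 3, CFL1, DIAPH3 and MYH10, overlapped in A549. Of the 21 genes that did not pass in A375, 9 (42.9%) lay above and 3 (14.3%: MARCKSL1, LIMA1 and CTTN) below, against 17.8% and 13.7% of 7312 genes. Those above included ARPC5 at 291 to 300.5 against 191 to 218 CPM and TPM4 at 758 to 799 against 565 to 653 CPM. The G2/M list, which fell in A375, had summed levels of 1799 to 2216 CPM over all A549 libraries. These sums were not split by the level of MCM7.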

How the data were processed

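RNA was extracted with RNeasy and sequenced by Illumina from 24 libraries, 3 biological replicates for each of 8 groups. The deposited raw counts per gene were made by the authors with bcl2fastq 2.19, Trimmomatic, STAR 2.7.1 and featureCounts on GRCh38.p10, per the submitters' processing notes, and multimapping and strand settings are not given in the sources used here. Of 21386 Ensembl identifiers, 21349 were named with GENCODE 29. From the counts, CPM (TMM-scaled) and RPKM (union of exons) were computed here. Groups followed the labels. Each comparison was fitted over all genes kept by filterByExpr with edgeR 4.0.16 (R 4.3.3, quasi-likelihood test, prior count 0.125, Benjamini-Hochberg adjustment), on the libraries of its groups, and the difference between Dox effects on 12 libraries. Genes were called at 1.5-fold, p under 0.01 and adjusted p under 0.05, while rose and fell mean an adjusted p under 0.05. Alternatives were DESeq2 1.42.0, its size factors, other filters, a test against 1.5-fold, a shared dispersion, the replicate block and leaving out each library. Scripts were tested on simulated counts.

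Same-numbered uninduced shMCM7 and parental A375 libraries deviated together (correlations of 0.318, 0.212 and 0.341, with 6 of 6 libraries closest to their own number), which comes from the data and not from the labels, so the blocked counts are given beside that comparison. Values in every A375 library are given for members called in induced shMCM7 cells or in the difference between Dox effects and for ACTB and ACTG1, the other members by role (with library values of TPM1, CNN1, MYH9, MYH10, DIAPH3 and LIMA1 added after these were seen), and companion genes are named where called, except some that are not reported here. The members and lists were chosen with earlier results of these data known. Total counts were 146656792 to 283721575 per library in A375 and 17911338 to 23452823 in A549, so low genes are less precise in A549.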

Additional observations from a re-analysis of the deposited data

Results flagged for a closer look

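For 15 of the 45 genes the effect of Dox differed between shMCM7 and parental A375 cells, tested as an interaction over 12 libraries with edgeR's quasi-likelihood test at an adjusted p under 0.05. The values are log2 differences, shMCM7 minus parental, and are given with no explanation. Positive differences were found for the profilin PFN2 (0.43), the cofilin CFL2 (0.35), the calponin CNN2 (0.34), the tropomyosin TPM2 (0.30), the myosin light chains MYL6 (0.29) and MYL12A (0.28), alpha-actinin ACTN1 (0.23), the LIM protein PDLIM5 (0.23) and caldesmon CALD1 (0.20). Negative differences were found for the transgelin TAGLN2 (-0.61), cofilin CFL1 (-0.51), gamma-actin ACTG1 (-0.37), the formin DIAPH3 (-0.31), profilin PFN1 (-0.24) and ezrin EZR (-0.22). Without shMCM7 noDox replicate 1, CALD1, EZR, PFN1 and PDLIM5 did not pass (PFN1 -0.22 and PDLIM5 0.22), whereas LIMA1 and TPM1 did. This was not particular to that library, as ACTN1, CALD1, EZR, PFN1 and PDLIM5 did not pass in most refits without 1 library.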

How the results depend on the processing

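Of the values of the comparisons under the alternatives, 450 stayed within their bounds and 36 moved; the cause was not tested. For induced shMCM7 cells, a test against 1.5-fold called 0 of the 45 up, with 220 up and 279 down over all genes. Leaving out 1 library gave 2 to 4 called up (4 without shMCM7 noDox replicate 1) and 11 to 16 that rose (11 without shMCM7 noDox replicate 2). In parental cells DESeq2 called 2 genes up, the replicate block 12, with 1 member rising (MARCKS, 0.36), and leaving out 1 library 0 to 1 (1 without parental Dox replicate 3). For the difference between Dox effects, the test against 1.5-fold called 0 members down (89 genes up, 184 down) and the block called 1 member up (TAGLN, 0.63). Leaving out 1 library gave 0 to 1 up and 0 to 1 down, and an ACTB difference of -0.15 to 0.0046, where it turned from -0.07 without shMCM7 noDox replicate 1. For uninduced cells, DESeq2 found 2 members higher and the test against 1.5-fold called 72 genes up and 14 down. The block called 335 up and 149 down, 1 member up, and found 10 members higher and 1 lower. Leaving out 1 library gave 0 to 1 members called up, 0 to 1 higher and 39 to 66 genes called down. In A549 parental cells DESeq2 called 9 genes up, and leaving out 1 library 0 to 300 (300 without parental noDox replicate 3), with 0 to 1 members higher.

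Replicate numbers marked no shared batch in the labels. Correlations of same-numbered libraries were 0.256, 0.088 and 0.235 in A375 shMCM7 cells (6 of 6 libraries closest to their own number), 0.217, 0.018 and 0.319 in A375 parental cells (5 of 6), 0.207, -0.66 and -0.69 in A549 shMCM7 and 0.021, -0.020 and -0.074 in A549 parental cells. With RPKM on the longest transcript, parental noDox levels of ACTB, TAGLN2 and TAGLN were 1129, 322 and 2.84. A shared dispersion was not run for the difference between Dox effects, whose fit already holds all 12 libraries. Low counts limit FLNC, CNN1 and ACTC1.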

Other observations

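Uninduced shMCM7 and parental A375 cells differed in some regulators of the cytoskeleton. MYOCD, the muscle-specific cofactor of SRF, was at 0.0623 ± 0.0290 CPM (SD, n = 3) in parental and at 1.49 ± 0.287 CPM in shMCM7 cells without Dox, which rested on 9 to 24 and 266 to 385 counts per library (log2 difference 4.56 ± 0.29 SE, adjusted p = 2.9e-05 in edgeR's quasi-likelihood test). With Dox it was at 2.28 ± 0.608 CPM in shMCM7 and 0.0820 ± 0.0172 CPM in parental cells. Of the 34 signalling genes, 2 were higher in uninduced shMCM7 than in uninduced parental cells and 0 lower, against 1.9% and 1.07% of all genes, and 1 of them was CDC42EP1, a CDC42 effector (15.7 ± 1.73 against 7.31 ± 1.42 CPM). MYOCD was singled out after its values were seen.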
